A study of Mus musculus with 6 samples.

Results

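Foxc1, Foxc2, Tbx1, Tcf15, Meox1, Tcf21 and Prrx1 encode transcription factors of the head and paraxial mesoderm, the cell layer that lies beside the neural tube. The 7 genes were chosen by symbol, and each matched 1 of the 54532 gene rows of the count files through the mm10 annotation. They were measured by total RNA sequencing in mouse embryo heads at embryonic day 8.5. The mutant group was 3 pools of heads with Sf3b4 deleted in neural crest cells, and the wild-type group was 3 pools of heads with intact Sf3b4. Each pool held 3 heads, taken before any change of form was seen. The titles call the mutants homozygous nulls, whereas the genotype entries and the design text name a neural crest mutant. The sources used here name neither the driver of the deletion nor whether wild-type embryos carried it.

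Head mesoderm gives rise to the muscles of the face and to part of the skull base and vessels, and it is mixed in the early head with mesenchyme that comes from the neural crest. Forkhead (Foxc1, Foxc2) and T-box (Tbx1) factors mark mesenchyme and the pharyngeal mesoderm core, and the basic helix-loop-helix factor Tcf21 marks progenitors of pharyngeal muscle. Tcf15 (paraxis) and the homeobox factor Meox1 mark the somites, the segmented blocks of trunk mesoderm, whereas Prrx1, a paired-related homeobox factor, marks mesenchyme of either origin. SF3B4 is a subunit of the SF3B complex, which helps the spliceosome recognise the branch site of introns.

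Total counts per pool ran from 6930827 to 12251910, and 14008 genes were tested. Levels are CPM values, that is counts divided by the TMM-scaled library size. Sf3b4 stood at 56.1, 64.2 and 60.9 CPM in the mutant pools and at 77.7, 72.8 and 63.9 CPM in the wild-type pools. Its log2 fold change of -0.24 (SE 0.0918) missed the threshold (adjusted p = 0.128, edgeR quasi-likelihood test). Reads of 4 Y-linked genes numbered 1 each in mutant replicate 3 and wild-type replicate 1 and 344 to 664 elsewhere. Separate litters are not stated for the pools, and p-values therefore reflect the spread among these pools only.

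Of the 7 genes, Foxc1 alone rose in the mutant heads, none fell, 5 did not pass the test and Tcf15 was too low to be tested. The test was edgeR's quasi-likelihood test, with Benjamini-Hochberg adjustment over all tested genes and a threshold of 0.05. Across all tested genes 6.52% passed, 2.65% higher and 3.88% lower in the mutants. The log2 fold change was positive for 4 of the 6 tested genes and for 50.3% of all tested genes, with medians of 0.15 and 0.00. Foxc1 was still the only one of the 6 at an unadjusted p under 0.05. Over all 14008 tested genes 3246 reached this level in edgeR, which is the background for each such count below. DESeq2 and limma-voom called none of the 6. In RNA from whole heads, fewer cells of a type and less RNA per cell cannot be told apart.

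**Figure D1:**
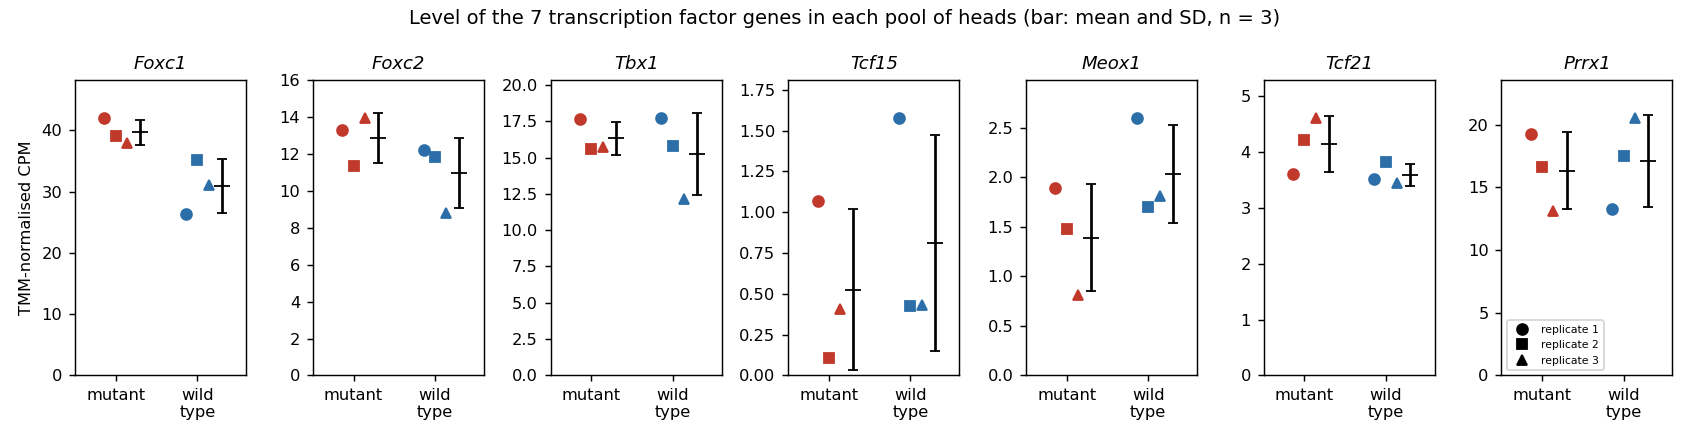
TMM-normalised CPM of each of the 7 genes in the 3 mutant and 3 wild-type pools (marker shape, replicate number), with the mean and SD of each genotype. The Foxc1 values of the genotypes do not overlap (37.9 to 41.9 against 26.4 to 35.2 CPM), whereas the values of the other 6 genes do.

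Foxc1 (ENSMUSG00000050295, mm10 chr13:31806633-31812476, plus strand) had 41.9, 39.0 and 37.9 CPM in the mutant pools, against 26.4, 35.2 and 31.1 CPM in the wild-type pools. Every mutant pool lay above every wild-type pool, a separation that 28.3% of tested genes showed in one direction or the other. The means were 39.6 ± 2.08 CPM in mutants and 30.9 ± 4.39 CPM in wild type (SD, n = 3 each), from 1162 counts in mutant and 895 in wild-type pools. The log2 fold change was 0.37 (SE 0.107, 95% interval 0.14 to 0.60), a 1.29-fold rise. Its edgeR adjusted p was 0.0497, which placed it at rank 904 of the 914 genes that passed. The call was lost without mutant replicate 1, 2 or 3 (edgeR adjusted p = 0.236, 0.132 and 0.105) and without wild-type replicate 1 (edgeR adjusted p = 0.117). It was also lost in the 4 pools with Y-linked reads (edgeR adjusted p = 0.155). The log2 fold change stayed positive in all 20 alternative settings, between 0.27 and 0.47, and 10 of the 20 passed.

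**Figure D2:**
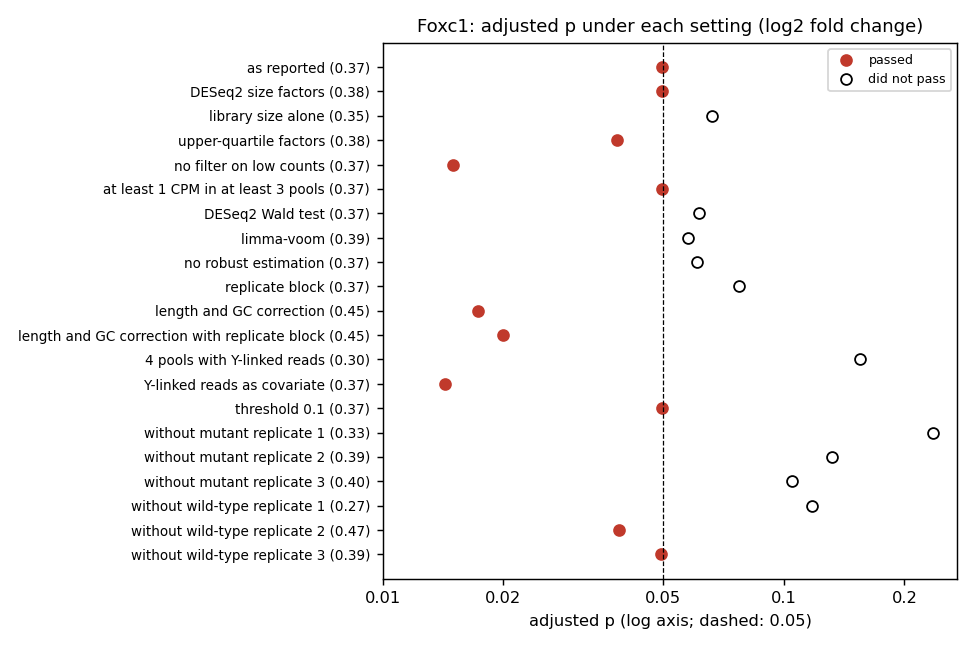
Adjusted p of Foxc1 (log axis) as reported and under 20 alternative settings, with the log2 fold change in parentheses after each setting; the dashed line is 0.05. Filled points passed and open points did not, and the log2 fold changes lie between 0.27 and 0.47.

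The Foxc1 gene is a single exon in GENCODE M21, as is Foxc2, and neither shares exonic bases with another annotated gene. Among tested protein-coding genes with a single annotated exon, 22 of 395 (5.57%) rose and 4 (1.01%) fell. Among those with more exons 331 of 12175 (2.72%) rose and 515 (4.23%) fell. The median log2 fold changes of these classes were 0.12 for a single exon and 0.00 for more exons. These shares are descriptions, and the part of exon number in the change of Foxc1 was not tested. With the trends on exon length and GC content removed, the log2 fold change of Foxc1 was 0.45.

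The upstream sequences of Foxc1, the member that rose, and Tbx1, a pharyngeal mesoderm member that did not pass, are shown for comparison. Both come from RefSeq (GRCm38.p6), run from base 250 to base 14 before the RefSeq start, at chr13:31806396-31806632 on the plus strand and chr16:18590685-18590921 on the minus strand, and are written 5′ to 3′. Capitals mark matches to the searched motifs.
Foxc1: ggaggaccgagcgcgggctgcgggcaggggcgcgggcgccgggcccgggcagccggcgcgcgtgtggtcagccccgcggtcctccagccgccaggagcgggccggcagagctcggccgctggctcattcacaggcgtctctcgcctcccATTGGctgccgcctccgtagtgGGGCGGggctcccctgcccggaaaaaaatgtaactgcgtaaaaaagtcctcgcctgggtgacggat
Tbx1: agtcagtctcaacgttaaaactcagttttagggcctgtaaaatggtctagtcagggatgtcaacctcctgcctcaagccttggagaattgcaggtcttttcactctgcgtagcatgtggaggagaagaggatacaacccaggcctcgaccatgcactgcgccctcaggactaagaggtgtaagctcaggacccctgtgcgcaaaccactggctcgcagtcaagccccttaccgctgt
The search covered both strands for the CCAAT box, the GC box GGGCGG, the TATA box TATAAA, the E-box CAGCTG, the forkhead motif TGTTTAC, the T-box motif TCACACC and, by name alone, the p53 half-site. Foxc1 held CCAAT once, on the minus strand, and GGGCGG once, whereas the Tbx1 window held none of the 7 motifs. Among 32841 RefSeq windows of the same length 32.8% held CCAAT and 30.9% held GGGCGG. The shares were 12.0% for TATAAA, 12.2% for CAGCTG, 3.02% for TGTTTAC, 3.15% for TCACACC and 6.79% for the p53 half-site. The Foxc1 window was 72.6% G and C and the Tbx1 window 53.2%, against a median of 51.9% over all windows. A motif match is a description of the letters and was not tested as a binding site.

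Foxc2 (chr8:121116171-121118895, plus strand), which acts with Foxc1 in the formation of somites, had 13.3, 11.4 and 13.9 CPM in the mutant pools, against 12.2, 11.9 and 8.78 CPM in the wild-type pools. The genotypes overlapped, and wild-type replicate 3 was the lowest pool. The log2 fold change was 0.24 (SE 0.156, 95% interval -0.09 to 0.57, edgeR adjusted p = 0.38, n = 3 each). It ranged from 0.09 to 0.34 over the alternative settings and passed in none of them.

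Both Foxc genes sit beside other forkhead genes. Foxf2 lies 175 kb and Foxq1 246 kb from Foxc1, and Foxf1 lies 28.0 kb and Foxl1 9.04 kb from Foxc2. The log2 fold changes were -0.08 for Foxf2 (SE 0.297, edgeR adjusted p = 0.903) and -0.15 for Foxl1 (SE 0.384, edgeR adjusted p = 0.848). Foxf1 and Foxq1 were too low to be tested, with 23 and 2 counts in the mutant pools against 20 and 6 in the wild-type pools.

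Tbx1 (chr16:18580979-18590671, minus strand), the T-box gene whose loss underlies much of DiGeorge syndrome, had 17.6, 15.6 and 15.7 CPM in the mutant pools, against 17.7, 15.8 and 12.1 CPM in the wild-type pools. The ranges overlapped, and wild-type replicate 3 was again lowest. The log2 fold change was 0.11 (SE 0.143, 95% interval -0.19 to 0.41, edgeR adjusted p = 0.684, n = 3 each), and it was -0.040 without wild-type replicate 3. That pool was also lowest in the summed level of 10 heart muscle markers, at 47.7 CPM, with 71.3 to 96.9 CPM in the mutant pools and 168 and 193 CPM in the other wild-type pools. None of the 9 tested heart markers passed in edgeR or had an unadjusted p under 0.05, and the smallest p was that of Myh7 (-0.60, edgeR adjusted p = 0.43). The part of heart tissue in the Tbx1 and Foxc2 values was not tested.

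Tcf21 (chr10:22817281-22820174, minus strand) had 3.61, 4.21 and 4.60 CPM in the mutant pools, against 3.52, 3.81 and 3.44 CPM in the wild-type pools. Mutant replicates 2 and 3 lay above all wild-type pools, but mutant replicate 1 lay among them. On the log2 scale the fold change was 0.20 (SE 0.214, 95% interval -0.26 to 0.65, edgeR adjusted p = 0.623, n = 3 each). Its close relative Msc, a musculin gene of the same muscle progenitors, was too low to be tested, with 17 counts in the mutant pools and 19 in the wild-type pools; 21.2% of its exonic bases lie under Gm9947 on the other strand.

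Prrx1 (chr1:163245119-163313710, minus strand) had 19.2, 16.6 and 13.1 CPM in the mutant pools, against 13.3, 17.5 and 20.5 CPM in the wild-type pools. The genotypes overlapped over nearly their whole range. Mutant over wild type, the log2 fold change was -0.05 (SE 0.171, 95% interval -0.42 to 0.32, edgeR adjusted p = 0.895, n = 3 each), and its sign changed without mutant replicate 3 (0.07) or wild-type replicate 3 (0.13). Its relative Prrx2 was read at 34.0 ± 1.43 CPM in mutants and 32.8 ± 2.91 CPM in wild type (SD, n = 3 each). The difference was 0.05 on the log2 scale (SE 0.0983, edgeR adjusted p = 0.784).

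The somite factors were the least abundant of the 7 genes. Meox1 (chr11:101877510-101894374, minus strand) had 23, 14 and 6 counts, or 1.89, 1.47 and 0.812 CPM, in the mutant pools, against 28, 12 and 21 counts, or 2.59, 1.70 and 1.81 CPM, in the wild-type pools. The lowest pools were mutant replicates 2 and 3, and mutant replicate 1 lay between wild-type pools. Its log2 fold change was -0.50 (SE 0.345, 95% interval -1.23 to 0.23, edgeR adjusted p = 0.412, n = 3 each), an interval that spans a fall and a small gain. It ran from -0.80 to -0.27 with each pool left out and was -0.055 with only the 4 pools that hold Y-linked reads. Tcf15 (chr2:152143561-152149097, plus strand) had 13, 1 and 3 counts in the mutant pools, against 17, 3 and 5 counts in the wild-type pools. The replicate 1 pool of each genotype held most of these reads. The ratio of summed Tcf15 counts, scaled for depth, was 0.69 in mutant over wild type (exact 95% counting interval 0.349 to 1.33), which covers counting error only. With no filter on low counts the log2 fold change of Tcf15 was -0.55 (edgeR adjusted p = 0.625), and the spread between pools of 1 genotype exceeded the difference between genotypes.

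**Figure D3:**
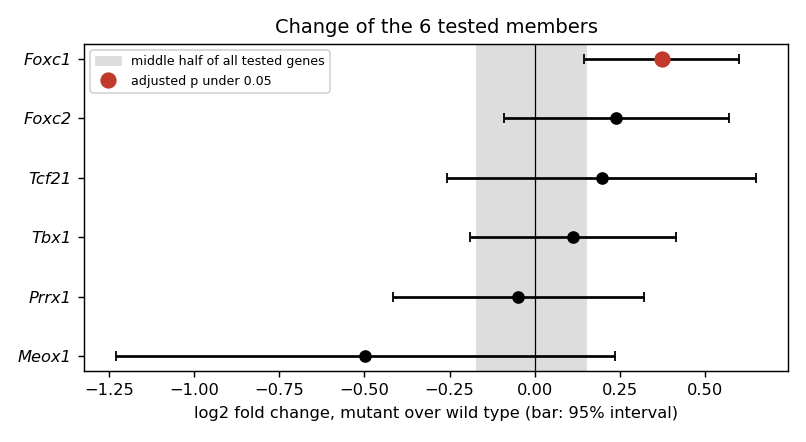
Log2 fold change, mutant over wild type, of the 6 tested genes with 95% intervals from the edgeR fit; the grey band is the middle 50% of all tested genes (-0.17 to 0.15). Only the interval of Foxc1 (0.14 to 0.60) lies wholly on one side of 0, and that of Meox1 (-1.23 to 0.23) is the widest.

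Whether the 7 genes changed differently from each other was examined on the log2 ratio of each of the 21 pairs of genes per pool. With 3 pools against 3 the exact permutation p (two-sided) cannot go below 0.1, so no pair could pass the threshold (Benjamini-Hochberg adjusted p = 0.525 to 0.9). The smallest p was reached by 4 pairs: Meox1 paired with Foxc1, Foxc2 or Tbx1, and Foxc1 with Prrx1. The ratio of Foxc1 to Foxc2 was 1.59 ± 0.165 in mutants and 1.46 ± 0.349 in wild type on the log2 scale (SD, n = 3 each).

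Levels between genes were compared per kilobase of annotated exon. On this scale (CPM per kilobase) Foxc1 averaged 6.78 ± 0.356 in mutants and 5.29 ± 0.751 in wild type (SD, n = 3 each). Foxc2 had 4.72 ± 0.493 in mutants and 4.02 ± 0.695 in wild type, and Tbx1 had 4.64 ± 0.33 in mutants and 4.33 ± 0.804 in wild type. Tcf21 and Prrx1 followed, with 1.76 ± 0.213 and 1.48 ± 0.275 in mutants and 1.53 ± 0.083 and 1.54 ± 0.329 in wild type. Meox1 and Tcf15 were lowest, with 0.624 ± 0.243 and 0.537 ± 0.502 in mutants and 0.912 ± 0.22 and 0.826 ± 0.675 in wild type. Every pool of Foxc1, Foxc2 and Tbx1 (lowest 3.22) lay above every pool of the other 4 genes (highest 1.96), and every pool of Tcf21 and Prrx1 (lowest 1.19) lay above every pool of Meox1 (highest 1.16). Elsewhere the order is not set by the data. The lowest Foxc1 pool, at 4.52, was below the highest of Foxc2 (5.12) and Tbx1 (5.03), and the highest Tcf15 pool, at 1.61, was above pools of Tcf21 and Prrx1. With the length of the longest transcript in place of all annotated exons, Tbx1 averaged 6.28 over the 6 pools, level with Foxc1 at 6.03.

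As a sum, the 7 genes reached 98.7, 88.4 and 86.5 CPM in the mutant pools, against 77.3, 86.3 and 78.2 CPM in the wild-type pools, so the lowest mutant pool and the highest wild-type pool nearly met. Foxc1 made up 42.5 to 44.2% of this sum in mutants and 34.2 to 40.8% in wild type. Without Foxc1 the sum was 48.6 to 56.7 CPM in mutants and 47.1 to 51.1 CPM in wild type, and the genotypes overlapped. The 5 tested genes with profiles most like the mean log2 level of the 6 tested members over the 6 pools were Rfx1, Tgfbr2, Zfp39, Stk24 and Zfp398. Their Pearson r was 0.97 to 0.99, the top of 9127 candidates with a mean of at least 10 CPM, and this describes 6 libraries that share their scaling.

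The wider list of head mesoderm and branchiomeric muscle genes held 4 that rose. Of 18 listed genes 14 were tested, with a median log2 fold change of 0.22. Of these 14, 4 rose, none fell and 10 did not pass (edgeR), beside 2.65% higher and 3.88% lower over all tested genes. At an unadjusted p under 0.05, 5 were higher and 1 lower, and DESeq2 and limma-voom called 3 higher and 0 lower each. Fst (follistatin, a secreted binder of activin) rose to 96.2, 91.4 and 97.6 CPM in the mutant pools, against 61.5, 59.5 and 65.0 CPM in the wild-type pools. Its log2 fold change was 0.61 (SE 0.0772, edgeR adjusted p = 2e-04), and it passed in all 20 alternative settings; 2.51% of its exonic bases lie under Gm47040 on the other strand. Cyp26c1, which degrades retinoic acid, rose by 0.45 (SE 0.11, edgeR adjusted p = 0.0311). Both genes are also known from tissues other than mesoderm, so they are no measure of mesoderm alone.

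The call of Cyp26c1 rested on several pools. It was lost without mutant replicate 1 or 3 (edgeR adjusted p = 0.098 and 0.114) or wild-type replicate 2 or 3 (0.124 and 0.0619). The summed level of the list was 490 to 499 CPM in mutants and 397 to 415 CPM in wild type. Without Fst and Cyp26c1 it was 277 to 309 CPM in mutants and 265 to 271 CPM in wild type. Mesp1, a factor of the earliest mesoderm, had no count in any pool, and Myf5 and Myod1, which start muscle differentiation, had 2 and 6 counts in the mutant pools and 4 and 3 in the wild-type pools.

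Among the tested genes of paraxial and lateral mesoderm 1 passed the test, beside a share of 6.52% over all tested genes. Of 19 genes of paraxial mesoderm and somites 11 were tested, none rose and 1 fell (edgeR), with a median of 0.02. At an unadjusted p under 0.05, 2 were higher and 1 lower, and DESeq2 and limma-voom called none in either direction. The gene that fell was Lfng, a modifier of Notch receptors used in somites and in the neural tube, with 38.7 ± 1.29 CPM in mutants and 48.5 ± 4.44 CPM in wild type (SD, n = 3 each). Its log2 fold change was -0.33 (SE 0.0937, edgeR adjusted p = 0.0492), and it did not pass when wild-type replicate 1 or 2 or any 1 mutant pool was left out (edgeR adjusted p = 0.103 to 0.209). Msgn1, a factor of unsegmented mesoderm, had no count in any pool. None of the 14 tested genes of lateral mesoderm and mesenchyme passed in either direction (edgeR), 1 had an unadjusted p under 0.05, DESeq2 and limma-voom called none, and the median was 0.13. With each pool left out the medians took either sign, from -0.035 to 0.086 for paraxial and from -0.049 to 0.18 for lateral mesoderm. The 2 with the smallest p were Twist1, a helix-loop-helix factor of mesenchyme (-0.23, SE 0.102, unadjusted p = 0.0419, adjusted p = 0.196), and Hand2 (0.38, SE 0.227, unadjusted p = 0.113, adjusted p = 0.332).

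**Figure D4:**
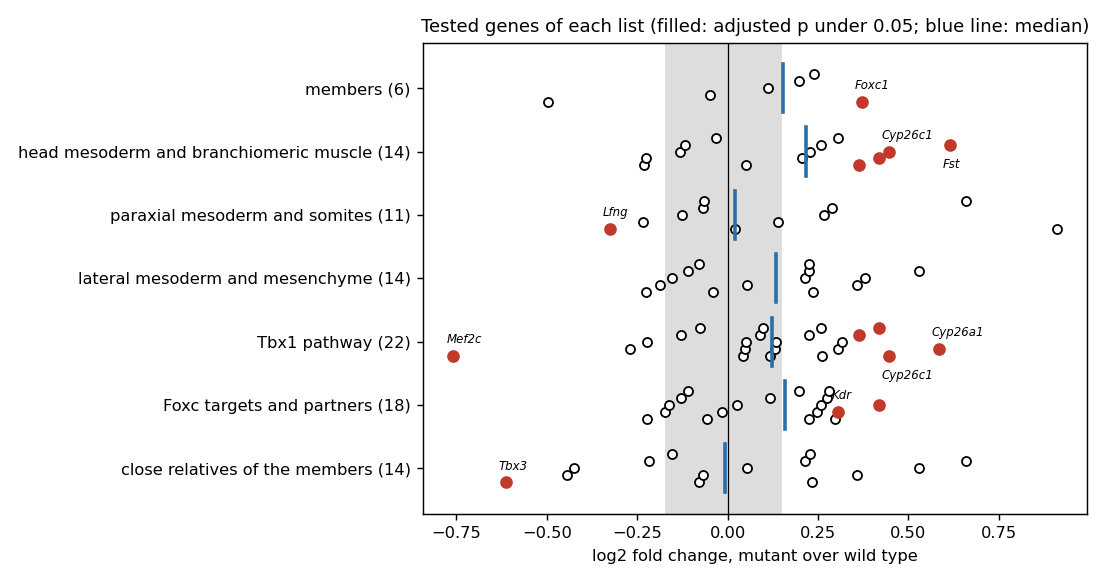
Log2 fold change, mutant over wild type, of the tested genes in each list (number tested in parentheses; members are the 7 genes); filled points passed the edgeR test (not all are named), the blue line is the list's median and the grey band the middle 50% of all tested genes (-0.17 to 0.15). Of the lists plotted, head mesoderm has the highest median, 0.22, and its 4 called genes are higher in mutants.

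All 22 genes of the Tbx1 pathway were tested, with a median of 0.12. Of these, 4 rose, 1 fell and 17 did not pass, beside 2.65% higher and 3.88% lower over all tested genes. Besides Cyp26c1, the retinoic acid-degrading gene Cyp26a1 was among those that rose, with 16.5 ± 2.43 CPM in mutants and 10.9 ± 1.78 CPM in wild type (SD, n = 3 each; log2 fold change 0.58, SE 0.152, edgeR adjusted p = 0.0318). Mef2c, a MADS-box factor of muscle, endothelium and neural crest, fell to 28.9 ± 1.80 CPM in mutants, against 49.3 ± 13.4 CPM in wild type (SD, n = 3 each; log2 fold change -0.76, SE 0.167, edgeR adjusted p = 0.0272). The call of Mef2c was lost without any 1 mutant pool (edgeR adjusted p = 0.0864 to 0.124). That of Cyp26a1 was lost without mutant replicate 1 or 3 (0.0918 and 0.136) or wild-type replicate 2 or 3 (0.109 and 0.0631). Signals that act with Tbx1 did not pass, among them Fgf8 (0.12) and Fgf10 (0.23).

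Of 18 tested targets and partners of the Foxc factors, 2 rose, none fell and 16 did not pass, with a median of 0.16. The counts in these lists stand beside shares of 2.65% higher and 3.88% lower over all tested genes (edgeR). At an unadjusted p under 0.05, 4 of the 18 were higher and 1 lower, and DESeq2 and limma-voom called 1 higher and 0 lower each. Kdr, the VEGF receptor gene of endothelium, was one that rose, with 116 ± 6.18 CPM in mutants and 93.5 ± 8.59 CPM in wild type (SD, n = 3 each; log2 fold change 0.31, SE 0.0818, edgeR adjusted p = 0.0356). Kdr did not pass when wild-type replicate 2 or any 1 mutant pool was left out (edgeR adjusted p = 0.0571 to 0.173). Of 14 tested close relatives of the 7 genes, Tbx3, a T-box repressor, fell by 0.61 (SE 0.159, edgeR adjusted p = 0.0316) and none rose (1 at an unadjusted p under 0.05, none with DESeq2 or limma-voom), with a median of -0.01 (-0.18 to 0.19 with each pool left out). Tbx3 did not pass once wild-type replicate 1 or 2 or any 1 mutant pool was left out (edgeR adjusted p = 0.0744 to 0.179). The next relative by p, Tbx18, had 0.66 (SE 0.242, edgeR adjusted p = 0.117).

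Markers of other tissues moved between the genotypes as well, and their counts stand beside 2.65% higher and 3.88% lower over all tested genes (edgeR). Of 10 neural crest markers 6 fell and none rose (9 lower and 0 higher at an unadjusted p under 0.05); the smallest p belonged to Sox10 (-1.15, SE 0.122, edgeR adjusted p = 5.68e-05), Tfap2b (-0.95) and Erbb3 (-0.53). Their sum was 292 to 334 CPM in mutants and 404 to 442 CPM in wild type. Of 10 surface ectoderm markers 2 rose, Cldn6 (0.52) and Cldn7 (0.47), 8 were higher at an unadjusted p under 0.05, and the sum was 622 to 669 CPM in mutants and 502 to 547 CPM in wild type. Of 10 endothelial markers Kdr rose, 5 were higher at an unadjusted p under 0.05, and the sum was 357 to 368 CPM in mutants and 290 to 329 CPM in wild type. Of 9 tested markers of endoderm and notochord Cldn4 rose (0.57). At an unadjusted p under 0.05, 1 was higher and 1, Foxa1 (-0.47), was lower. The sum was 80.2 to 86.3 CPM in mutants and 60.7 to 70.1 CPM in wild type. Cldn4 alone averaged 34.1 CPM of it in mutants and 22.8 CPM in wild type. Of 10 neural tube markers Rfx4 (-0.87), En1 (-0.79) and Hes5 (-0.57) fell, and 4 were lower and 1 higher at an unadjusted p under 0.05. The neural tube sums overlapped, at 436 to 475 CPM in mutants and 460 to 483 CPM in wild type.

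Among these markers of the head, none was at 0 in all pools. None of the 6 tested erythroid markers passed in edgeR and 1 had an unadjusted p under 0.05, with sums of 77.0 to 168 CPM in mutants and 102 to 257 CPM in wild type, and the one with the smallest p was Slc4a1 (-0.80, edgeR adjusted p = 0.163). Markers of extraembryonic endoderm summed to 2.54 to 5.28 CPM in mutants and 2.97 to 3.43 CPM in wild type, and neither tested gene passed (edgeR; unadjusted p under 0.05 in 0 of 2), the smaller p being that of Rbp4. Because CPM values are shares of a library, a fall in one tissue and a rise in another are not independent, and the part of these tissues in the change of Foxc1 was not tested.

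**Figure D5:**
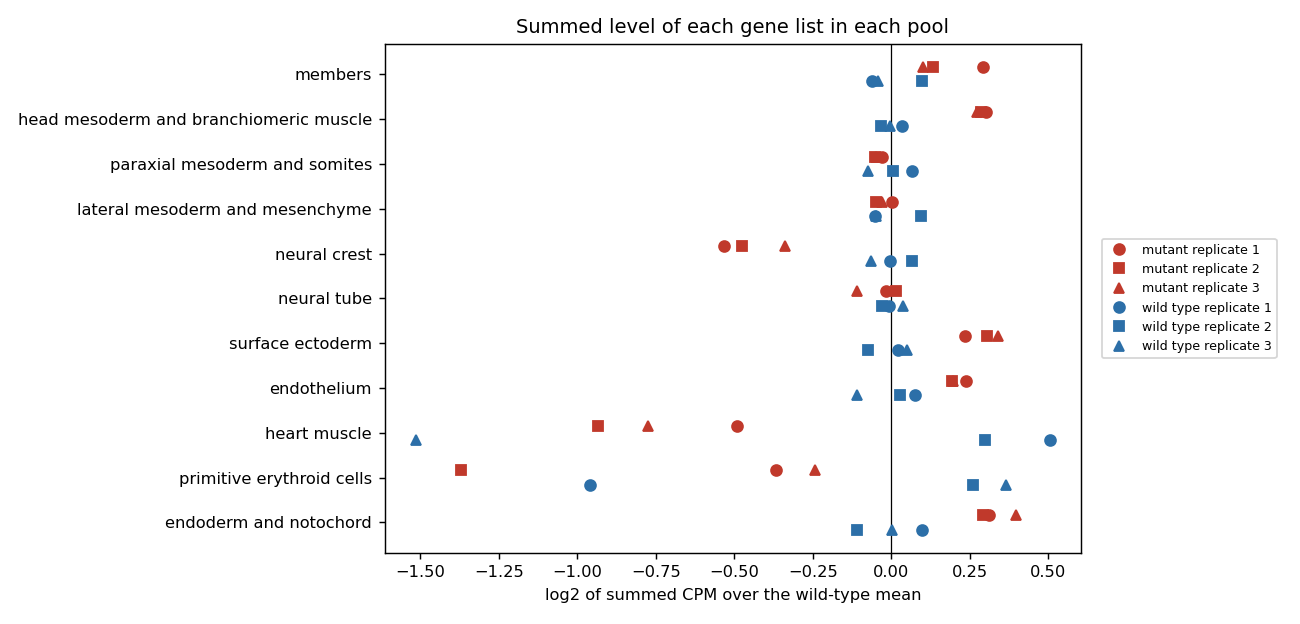
Log2 of each pool's summed CPM over the wild-type mean, for the 7 genes and for lists of mesoderm genes and of markers of other tissues; colour gives the genotype and marker shape the replicate number. The mutant pools lie above all wild-type pools for the 7 genes, head mesoderm, surface ectoderm, endothelium and endoderm with notochord, and below them for neural crest. For the 7 genes the lowest mutant pool (86.5 CPM) and the highest wild-type pool (86.3 CPM) nearly meet, and without Foxc1 the genotypes overlap.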

How the data were processed

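RNA was isolated with the RNeasy micro kit (Qiagen) and sequenced after a TruSeq Standard Total RNA preparation (Illumina), per the labels' protocols. The deposited values are the authors' raw read counts per gene, 1 file for each pool, not normalised. The submitters' processing notes give the build mm10; aligner, counting program, annotation and use of strand are not stated there. Of 54532 gene IDs 54495 matched GENCODE M21 (GRCm38), which gave symbols, positions and exon lengths. Genes were kept with filterByExpr (14008), scaled by TMM factors and tested with edgeR 4.0.16 (glmQLFit, robust, and glmQLFTest, two-sided) in R 4.3.3. The threshold was 0.05 on the Benjamini-Hochberg adjusted p. The standard error is the log2 fold change divided by the square root of F, and 95% intervals use the fit's degrees of freedom. A pseudocount of 0.5 CPM was used for pair ratios and profiles. The procedure was tested on simulated data.

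The 7 genes, the lists, the named genes and the alternatives were chosen with earlier results of these data known. Named are the 7 genes, their forkhead neighbours, Sf3b4, the genes with the smallest p in each list (up to 4 that passed, or else 2; up to 3 or else 1 for markers) and 5 genes by likeness of profile. Some genes of the lists enter the counts and sums but are not reported here by name. Other listed genes serve as examples picked with their values in view. Alternatives used DESeq2 1.42.0 and limma 3.58.1, other scalings and filters, a replicate block, a length and GC correction, Y-linked reads and each pool left out. Between pools of 1 genotype, chi-square per degree of freedom was 3.01 to 10.2, above sampling noise.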

Additional observations from a re-analysis of the deposited data

How the results depend on the processing

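The number of the 7 genes that rose was 1 as reported and 0 with library size alone, DESeq2, limma-voom, no robust estimation, the replicate block (Foxc1 adjusted p = 0.0775) and the 4 pools with Y-linked reads; it was 0 to 1 with each pool left out. Those of the 7 that were tested (6 as reported, 7 in 5 alternatives) did not fall in any setting. Prrx1 turned positive with the length and GC correction (0.032, or 0.043 with the replicate block) and without mutant replicate 3 (0.072) or wild-type replicate 3 (0.13), and Tbx1 turned negative without wild-type replicate 3 (-0.040); with each pool left out Prrx1 ranged from -0.21 to 0.13 and Tbx1 from -0.040 to 0.25; the cause was not tested. Over all genes 371 rose and 543 fell; 624 rose with no filter, 647 with the length and GC correction, 691 with that and the block, 760 (885 lower) with Y-linked reads as covariate and 663 (887 lower) at a threshold of 0.1, and 286 fell when only the 4 pools holding Y-linked reads entered. With each pool left out 107 to 890 rose and 123 to 920 fell.

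In the lists, the replicate block left 2 higher genes each in head mesoderm and the Tbx1 pathway and 0 among Foxc targets. Foxc targets had 1 higher gene with DESeq2, limma-voom or the 4 pools. Lfng, the 1 lower paraxial gene, was not called (0 lower) with DESeq2 factors, upper-quartile factors, the DESeq2 test, limma-voom, no robust estimation, the block or the 4 pools. Among the relatives, 0 fell with DESeq2 or in the 4 pools, and 1 rose in the 4 pools and with no filter. With each pool left out, head mesoderm had 1 to 4 higher and 0 to 1 lower genes, the Tbx1 pathway 0 to 4 and 0 to 1, Foxc targets 0 to 3 and 0 to 1, paraxial and lateral mesoderm 0 to 1 lower each, and the relatives 0 to 1 in either direction. Deviations of same-numbered pools correlated at -0.16, 0.05 and -0.06, so no pairing by replicate number was seen. Those of pools with unlike numbers ran from -0.21 to 0.27. The highest was mutant replicate 3 with wild-type replicate 1, the pools with 1 Y-linked read each. With 3 pools per genotype these values cannot exclude a shared litter or preparation. Depth limits the low genes Tcf15 and Meox1, whose counts also varied between pools.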

Other observations

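A T-box relative of Tbx1 was noticed among genes too low for the filter on counts, after its values were seen. Tbx4, a T-box factor of limb bud and lung mesenchyme (chr11:85886422-85916097), had 32 counts in the mutant pools and 2 in the wild-type pools. The ratio, scaled for depth, was 16.2 (exact 95% counting interval 4.14 to 140), which covers counting error only. With no filter on low counts Tbx4 passed the edgeR test (adjusted p = 0.000154 over 28032 genes). In that setting 624 of the 28032 genes were called higher and 739 lower. Tbx4 was read at 1.07, 1.37 and 0.812 CPM in the mutant pools, against 0.0927, 0 and 0.0861 CPM in the wild-type pools. Every mutant pool lay above every wild-type pool, as for 13.8% of the 14008 genes that passed the filter. Tcf23, a relative of Tcf21, had 6 counts in the mutant pools and none in the wild-type pools, and it did not pass without the filter (edgeR adjusted p = 0.177).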
